A study of Mus musculus with 11 samples.

Results

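A set of 10 imprinted genes was followed through the gingival epithelium of mice from which Langerhans cells (LCs) had been depleted early in life. The set holds H19, Kcnq1ot1, Igf2, Plagl1, Cdkn1c, Peg3, Meg3, Grb10, Ndn and Igf2r, out of the 19170 genes with values in the deposited table. They were picked by name, because H19 and Kcnq1ot1 were already known to be lower after depletion in these same mice. The question was whether the lower level of these transcripts is shared by the other genes of the set. The difference between the groups is therefore a description, given with its interval and without a p-value for the 7 members above the floor set out below. Where a member is said to be past a threshold, that too is a description.

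All 11 mice carried langerin-DTR, a transgene that places the diphtheria toxin (DT) receptor on cells expressing langerin, so that DT kills LCs and any other langerin-positive cell. DT was injected into 6 of them and PBS into 5, at postnatal days 17, 24 and then 31, and the gingival epithelium was taken from the mice at 8 weeks of age. LCs had by then returned to the gingiva, as judged by flow cytometry in the study. Poly(A)-selected RNA was sequenced from each mouse, and every mouse in both groups carried the transgene. No mouse without the transgene was given DT, so effects of the toxin itself and of the lost cells cannot be told apart here.

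Depth lay between 17509328 and 24325513 reads per mouse, and a value is a normalized count, that is, the read count of a gene divided by the size factor of the mouse. The keratinocyte keratins Krt5 and Krt14 had 80140 to 96900 and 176200 to 248800 normalized counts, whereas Cd207, which encodes langerin, had 10.0 to 43.0 after PBS and 15.8 to 21.6 after DT. All 8 LC markers on the list had a lower mean after DT and 0 of them passed the threshold explained below (limma). Of these, 3 had an unadjusted p under 0.05, a level that 11.5% of all genes reached (2204 of 19170). The LC score, the mean log2 deviation of 7 of these markers from their average over mice, was 0.88 in PBS 3 and 0.68 in PBS 5. It was -0.12, -0.02 and -0.39 in PBS 1, PBS 2 and PBS 4, inside the range of -0.63 to 0.16 after DT. The higher PBS level thus rested on PBS 3 and PBS 5. The methods name male mice and the study's reporting summary both sexes. Xist, the transcript of the inactive X chromosome, had 7149 to 22730 normalized counts in all 11 libraries. Of the Y-linked genes, Kdm5d had at most 3.38 and Uty 0.981 to 11.3, and Ddx3y and Eif2s3y were listed without a value. High Xist beside low or absent Y-linked transcripts is the pattern of female tissue, unlike the male mice of the methods. PBS 3 and PBS 5 lay apart from the other PBS mice on the first principal component, which held 29.5% of the variance (23.9 and 31.5, against -24.2 to -16.6 in PBS 1, PBS 2 and PBS 4), and the DT mice lay between them at -12.0 to 13.2. The share of reads from mitochondrial genes was 2.87%, 4.15%, 1.63%, 2.93% and 3.03% in PBS 1 to PBS 5 and 1.34% to 2.24% in the DT mice. Its means were 2.92% ± 0.89 (SD, n = 5) and 1.77% ± 0.35 (SD, n = 6; two-sided exact permutation test, p = 0.017), and its part in the lower H19 and Kcnq1ot1 was not tested.

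An imprinted gene is transcribed mainly from the copy inherited from a single parent, because a stretch of DNA nearby is methylated in the egg or in the sperm and keeps that mark in the embryo. Many imprinted genes act on growth: as a rule, those read from the paternal copy promote it and those read from the maternal copy hold it back. H19 and Igf2 share enhancers at the distal end of chromosome 7 and a methylated control region that lets the maternal copy use H19 and the paternal copy use Igf2, whereas Kcnq1ot1 is a long nuclear RNA made from the paternal copy of the adjoining domain, where it silences Cdkn1c and its neighbours in cis. Plagl1 encodes a zinc-finger factor that has been placed at the centre of a network of co-expressed imprinted genes, which is the network asked about here. The counts do not separate the parental copies, so nothing below bears on which copy was read.

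The H19 transcript is the host of miR-675, and Igf2 hosts miR-483 in an intron. Their mature arms are shown because they tie the transcript with the highest level of the set and its near-silent neighbour to defined products, with the seed (bases 2 to 8) in capitals. The sequences are from RefSeq on GRCm38.p6, minus strand, and the arms of miR-675 lie inside an H19 exon at chr7:142577112-142577133 (5p) and chr7:142577078-142577099 (3p), those of miR-483 in an Igf2 intron at chr7:142654968-142654989 (5p) and chr7:142654932-142654952 (3p).
mmu-miR-675-5p: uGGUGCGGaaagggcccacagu
mmu-miR-675-3p: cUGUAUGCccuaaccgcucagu
mmu-miR-483-5p: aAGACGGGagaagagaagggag
mmu-miR-483-3p: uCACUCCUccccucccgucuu
No pair of these 4 arms shares a seed. The genes Mir675 and Mir483 were listed without a value, and libraries of poly(A) RNA do not measure mature miRNAs, so the values below are those of the host transcripts.

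Kcnq1ot1 is read from the paternal copy, from a promoter that lies in a region methylated on the maternal copy. The 250 bases before its RefSeq start are shown because it is the member with such a promoter that did not overlap between the groups, with each CpG, the dinucleotide that carries the methyl mark, in capitals. They lie at chr7:143296548-143296797 on the minus strand of GRCm38.p6, and the 2 bases nearest the start fall inside the gene as GENCODE draws it.
Kcnq1ot1: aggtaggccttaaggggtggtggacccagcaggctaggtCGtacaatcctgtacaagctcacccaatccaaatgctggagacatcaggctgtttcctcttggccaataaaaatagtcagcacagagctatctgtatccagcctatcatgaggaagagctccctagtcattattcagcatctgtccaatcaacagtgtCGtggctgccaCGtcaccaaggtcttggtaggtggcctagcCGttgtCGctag
The 250 bases held 5 CpGs. The letters TGCCGC, the motif bound by the imprint-maintenance factor ZFP57 when methylated, and their reverse complement GCGGCA were not found in this stretch. RefSeq windows of 300 bases (250 before and 50 after each start) were searched for the same letters. They were found in 4 of the 13 windows of the 8 members with a window, against 11.6% of all 32851 windows. These were the window of Plagl1 and 1 window each of Igf2, Meg3 and Grb10. The motif holds a CpG, and the member windows had a median of 13 CpGs against 7 over all windows, so nothing is read from this count. H19 and Cdkn1c had no window.

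The long noncoding members come first. H19 (ENSMUSG00000000031, chromosome 7 from 142575529 to 142578143, minus strand, 5 exons in its longest transcript) is known as a growth-restraining RNA of the fetus that is largely switched off after birth. In PBS 1 to PBS 5 its normalized counts were 3502, 3362, 3359, 2692 and 4731. In DT 1 to DT 6 they were 1756, 2413, 2025, 2174, 2093 and 1770. The groups did not overlap, and PBS 5 was highest. The PBS mean was 3529 ± 742 (SD, n = 5) and the DT mean 2038 ± 250 (SD, n = 6), or 57.8% of the PBS level. The difference on the scale of log2(normalized count + 1) was -0.78 (standard error 0.11, 95% interval -1.02 to -0.54).

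Kcnq1ot1 (ENSMUSG00000101609, chromosome 7 from 143203458 to 143296549, minus strand, a single exon of 93092 bases) was at 238, 281, 151, 318 and 213 normalized counts in PBS 1 to PBS 5. In DT 1 to DT 6 it had 135, 148, 133, 121, 71.6 and 109. All DT mice lay below all PBS mice, but only just, since PBS 3 at 151 stood next to DT 2 at 148. The means were 240 ± 64.0 (SD, n = 5) and 120 ± 27.0 (SD, n = 6), or 49.9% of the PBS level, with a log2 difference of -0.99 (standard error 0.19, 95% interval -1.40 to -0.58). Kcnq1ot1 lies antisense to Kcnq1. The library kit keeps the strand but the strand setting of the counting is not given in the sources used here, so reads of the 2 genes may not be separated.

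Meg3, a noncoding RNA read from the maternal copy of the Dlk1 domain on chromosome 12, was close to absent. It had 15 reads over the 5 PBS mice and 9 over the 6 DT mice, with 0 to 6 and 0 to 3 reads per mouse. No fold is given for it, since 3 reads per library is taken as the floor.

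Among the protein-coding genes read from the paternal copy, Igf2, the fetal insulin-like growth factor next to H19, was also near the floor, with 17 reads over the PBS mice (1 to 6 per mouse) and 10 over the DT mice (0 to 3 per mouse). The low level of Igf2 beside a high level of H19 was thus present in both groups. Ndn, which encodes the growth suppressor necdin of the Prader-Willi region, had 20 reads over the PBS mice (2 to 5 per mouse) and 10 over the DT mice (0 to 4 per mouse). No fold is given for these genes either.

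Plagl1 (chromosome 10 from 13060504 to 13131694), the zinc-finger factor of the network, was at 1081, 1259, 1105, 1217 and 1046 normalized counts in PBS 1 to PBS 5. After DT its lowest, median and highest values were 769, 902 and 1119. DT 3, DT 5 and DT 6 lay well below every PBS mouse, and DT 1 (1022) and DT 2 (1010) just below. DT 4 at 1119 lay inside the PBS range. The means were 1142 ± 91.7 (SD, n = 5) and 914 ± 154 (SD, n = 6), a log2 difference of -0.33 (95% interval -0.54 to -0.12).

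Peg3 (chromosome 7 from 6703892 to 6730431), a paternally read zinc-finger factor known for its part in maternal behaviour and stem cells, had the widest relative spread after PBS of the well-measured members. Over PBS 1 to PBS 5 its normalized counts were 951, 761, 549, 1216 and 395, with 482, 621 and 745 as its lowest, median and highest values after DT. The DT mice lay inside the PBS range. The coefficient of variation was 41.9% after PBS and 18.8% after DT, and the log2 difference was -0.26 (95% interval -0.73 to 0.21), which includes 0. The sign of this difference turned in fits with another measure of the libraries as a covariate: it was 0.063 with the fibroblast score and 0.034 with the long-gene level, both described below.

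Among the genes that hold growth back, Igf2r (chromosome 17 from 12682406 to 12769664), the receptor that carries IGF2 to the lysosome, was at 1711, 1532, 1401, 1824 and 1456 normalized counts in PBS 1 to PBS 5. After DT its lowest, median and highest values were 1285, 1505 and 1568. The groups overlapped, and the log2 difference was -0.11 (95% interval -0.26 to 0.04). Airn, the antisense RNA that silences Igf2r on the paternal copy in many tissues, overlaps it and had 39.4 ± 3.28 (SD, n = 5) and 33.6 ± 11.4 (SD, n = 6) normalized counts, a log2 difference of -0.27 (limma adjusted p = 0.628). As with Kcnq1 and Kcnq1ot1, reads of this pair may not be separated.

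Grb10 (chromosome 11 from 11930508 to 12038683), an adaptor that damps insulin and IGF1 receptor signalling, went the other way. Over PBS 1 to PBS 5 its normalized counts were 69.0, 74.8, 67.4, 86.5 and 54.6, with 64.2, 91.6 and 100.9 as its lowest, median and highest values after DT. DT 2 at 64.2 lay inside the PBS range, and the other DT mice lay above it. The log2 difference was 0.33 (95% interval 0.03 to 0.63). Cdkn1c (chromosome 7 from 143458339 to 143461050), the cyclin-dependent kinase inhibitor p57 that Kcnq1ot1 silences on the paternal copy, had 13.6 to 29.4 normalized counts after PBS (median 21.1) and 17.2 to 39.7 after DT (median 22.2). Its log2 difference was 0.14 (95% interval -0.38 to 0.67), and its sign turned without PBS 1 and without DT 4.

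**Figure D1:**
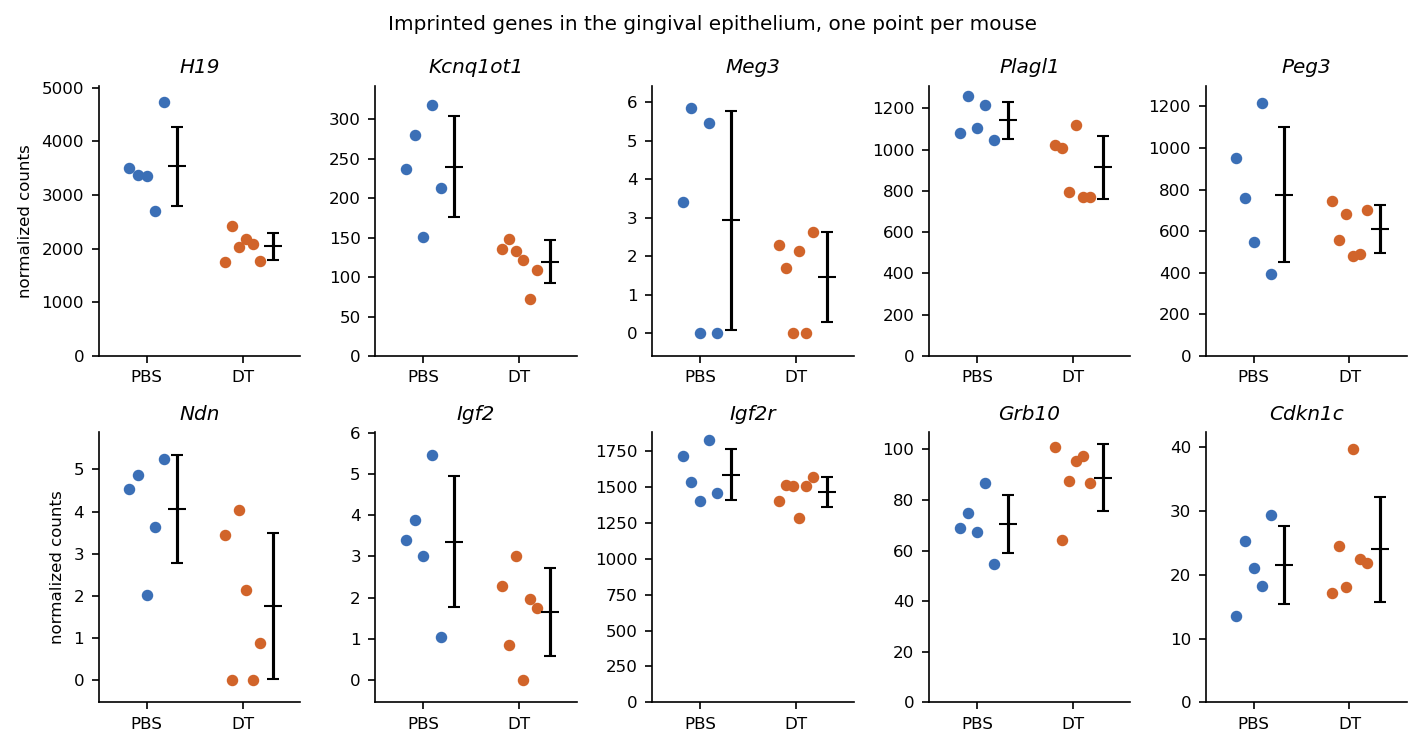
Normalized counts of the 10 imprinted genes (vertical axes, linear, each with its own scale), with a point for each PBS mouse (blue) and DT mouse (orange) and the mean with its SD in black. H19 (2692 to 4731 after PBS, 1756 to 2413 after DT) and Kcnq1ot1 (151 to 318 and 71.6 to 148) do not overlap between the groups, while the other 8 genes do.

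A gene is said to pass the threshold where its limma p, adjusted over all 19170 genes by the Benjamini-Hochberg method, is under 0.1. Over all genes, 0.558% passed (107, of which 60, or 0.313%, were higher and 47, or 0.245%, lower after DT), and 1.65% did not overlap between the groups (0.751% lower after DT). Of the 10 members, 2 passed and 2 did not overlap, H19 and Kcnq1ot1 in both counts. Because these 2 genes put the set together, nothing is read from that count. Of the other 8, 0 passed and 6 had a negative log2 difference. The median log2 difference was -0.37 over the 10 members and -0.29 over these 8, of which 3 are near the floor, against -0.01 over all genes. Of the 7 members averaging 10 or more normalized counts, 5 had a negative difference, with a median of -0.26. Both values count H19 and Kcnq1ot1. Among the rest, Plagl1 (-0.33), Peg3 (-0.26) and Igf2r (-0.11) were lower after DT, and Cdkn1c (0.14) and Grb10 (0.33) were higher.

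When single mice were left out, the log2 difference lay between -0.87 and -0.66 for H19 and between -1.14 and -0.85 for Kcnq1ot1, which was not past the threshold without PBS 1, PBS 2 or DT 6. Without PBS 3 and PBS 5, the mice that lay apart, H19 was at -0.64 and Kcnq1ot1 at -1.24. Plagl1, Peg3 and Igf2r also passed (-0.39, -0.67 and -0.21), as did 1967 of all 19170 genes. These mice were left out for their expression values, so this count describes how far the PBS mice decide it.

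The wider set of imprinted genes was examined next, from a list of 71 others drawn up for this comparison. Whether each of them is imprinted in the gingival epithelium cannot be told from these counts. Of these, 49 had values and 35 averaged 10 or more normalized counts. None of the 49 passed the threshold (limma), 4 had an unadjusted p under 0.05 (11.5% of all genes did), 27 were lower and 22 higher after DT, and the median log2 difference was -0.0046. All 49 overlapped between the groups. The lower level of H19 and Kcnq1ot1 was therefore not seen across the list as a whole.

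By role, Gnas, which encodes the stimulatory G protein, had 6912 ± 609 (SD, n = 5) and 7224 ± 135 (SD, n = 6) normalized counts, a log2 difference of 0.07 (limma adjusted p = 0.685). The lowest p-values among genes lower after DT belonged to Phactr2 (-0.20, limma adjusted p = 0.246), Impact, a regulator of the GCN2 stress kinase (-0.27, limma adjusted p = 0.301), and the noncoding Peg13 (-0.22, limma adjusted p = 0.439). Impact passed without PBS 5 (-0.37, limma adjusted p = 0.062), the only gene of the list to do so in the 11 fits that left out a mouse. Among genes higher after DT they belonged to Gab1, an adaptor of growth factor receptors (0.14, limma adjusted p = 0.266), Pon2, a paraoxonase (0.09, limma adjusted p = 0.499), and Ascl2, a helix-loop-helix factor of the Kcnq1ot1 domain (0.30, limma adjusted p = 0.515).

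**Figure D2:**
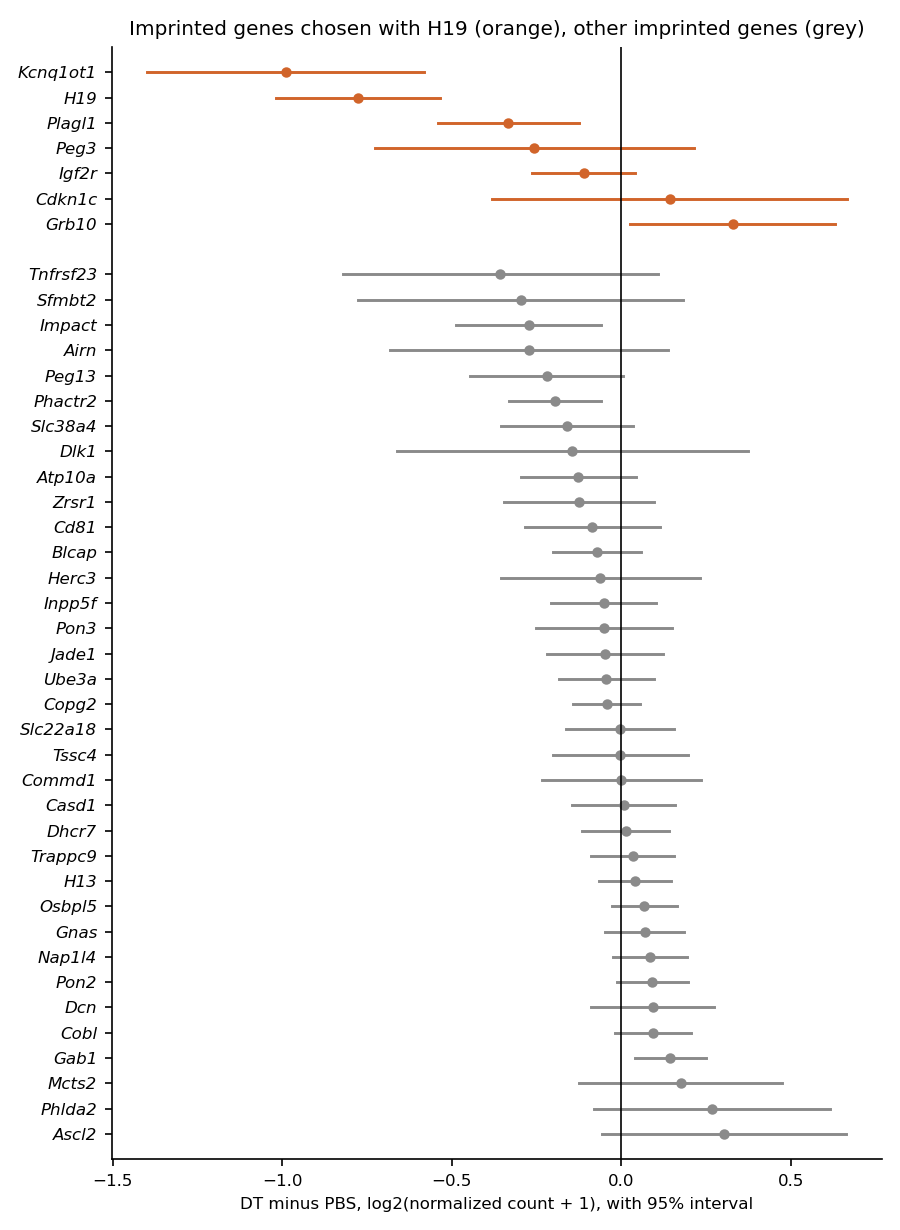
Difference between DT and PBS on the log2(normalized count + 1) scale (horizontal axis) with its 95% interval for the 7 members averaging 10 or more normalized counts (orange) and the 35 other imprinted genes at that level (grey). Kcnq1ot1 at -0.99 and H19 at -0.78 lie to the left of all grey points, the lowest of which is Tnfrsf23 at -0.36.

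The genes around H19 and Kcnq1ot1 were then compared per kilobase of merged exons. After PBS, H19 had 1435 ± 302 normalized counts per kb (SD, n = 5) and Igf2, the neighbour that shares its control region, 0.588 ± 0.279. Mrpl23, the unimprinted mitochondrial ribosomal gene on the far side of H19, had 70.6 ± 4.55 after PBS and 72.2 ± 6.46 after DT. Of 9 neighbours of H19 with values, 0 passed the threshold (limma) and 0 had an unadjusted p under 0.05. After DT 6 were lower and 3 higher, with a median log2 difference of -0.24, against -0.01 over all genes. That median counts Igf2 and other neighbours averaging under 10 normalized counts. Among the 6 averaging 10 or more, Lsp1 (-0.35, limma adjusted p = 0.696), Syt8 (-0.24) and Tnni2 (-0.02) were lower. Mrpl23 (0.03), Ctsd (0.06) and Ascl2 (0.30, limma adjusted p = 0.515) were higher.

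In the domain of Kcnq1ot1, its own level was 2.58 ± 0.69 normalized counts per kb after PBS (SD, n = 5) and 1.29 ± 0.29 after DT (SD, n = 6). Slc22a18, a transporter, and Phlda2, a restrainer of placental growth, are genes that Kcnq1ot1 silences on the paternal copy. They had 178 ± 16.1 and 97.4 ± 26.0 normalized counts per kb after PBS, and 177 ± 12.7 and 116 ± 21.7 after DT. Kcnq1, the potassium channel gene in which Kcnq1ot1 lies, had 1.10 ± 0.76 and 1.28 ± 0.69. The log2 differences were -0.0046 for Slc22a18 (95% interval -0.16 to 0.16, limma adjusted p = 0.989) and 0.27 for Phlda2 (95% interval -0.08 to 0.62, limma adjusted p = 0.565). Of 16 genes of this domain with values, 0 passed (limma), 0 had an unadjusted p under 0.05, and 10 were higher after DT with a median of 0.03. The upper limits of the intervals, 0.67 for Cdkn1c, 0.62 for Phlda2, 0.66 for Ascl2 and 1.27 for Kcnq1, do not exclude rises up to these sizes.

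**Figure D3:**
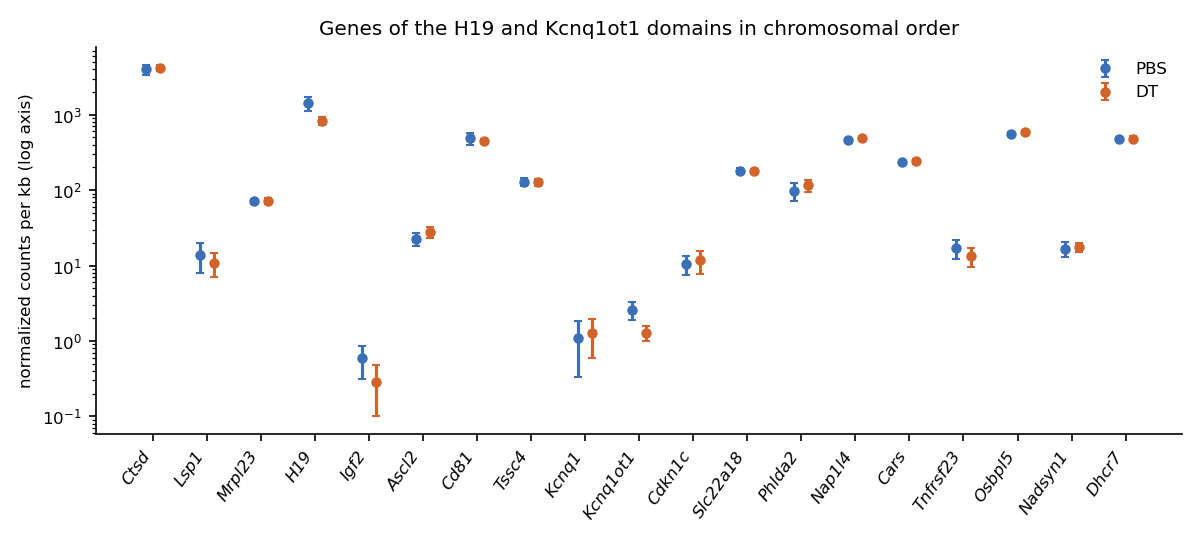
Normalized counts per kb of merged exons (vertical axis, log scale) for the genes of the H19 and Kcnq1ot1 domains in their order along chromosome 7, as the mean with its SD for 5 PBS mice (blue) and 6 DT mice (orange). H19 is at 1435 and 829 and Kcnq1ot1 at 2.58 and 1.29, while Igf2 lies near the floor in both groups and Slc22a18 is at 178 and 177.

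Across the members, the levels per kb after PBS ran from H19 through Igf2r (170 ± 19.1), Plagl1 (146 ± 11.7), Peg3 (58.1 ± 24.4), Cdkn1c (10.6 ± 3.00), Grb10 (7.75 ± 1.28), Kcnq1ot1, Ndn (1.10 ± 0.35) and Igf2 to Meg3 (0.162 ± 0.157). The ranges of mean ± SD overlapped between Igf2r and Plagl1, Cdkn1c and Grb10, Ndn and Igf2, and Igf2 and Meg3. Each pair was measured in the same PBS mice, so this overlap does not decide whether the genes differ. Their order within each mouse was not tested. With the length of the longest transcript in place of merged exons Plagl1 (217) stood above Igf2r (178) and Grb10 (13.9) above Cdkn1c (11.3). H19 ranked 694 of 19170 genes per kb of merged exons and Kcnq1ot1 15434.

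The proteins that keep or erase imprints were taken next, among them the DNA methyltransferases, the TET enzymes and the ZFP57 partners. Of 25 genes listed, 23 had values and 0 passed the threshold (limma). Of these 23, 7 had an unadjusted p under 0.05, against 11.5% of all genes, and 6 of the 7 were lower after DT. Dnmt3a, a de novo DNA methyltransferase, came nearest, with 655 ± 42.1 (SD, n = 5) and 543 ± 41.3 (SD, n = 6) normalized counts, a log2 difference of -0.27 (limma adjusted p = 0.118). Uhrf1, which guides the maintenance methyltransferase, had a log2 difference of -0.32 (limma adjusted p = 0.339), and Tet3, an enzyme that oxidises methylcytosine, -0.18 (limma adjusted p = 0.322). Eed, a subunit of the Polycomb complex PRC2, was higher without overlap, at 496 to 533 after PBS and 554 to 634 after DT, a log2 difference of 0.18 (limma adjusted p = 0.216). Trim28, the corepressor that ZFP57 recruits, was at 0.07 (limma adjusted p = 0.603).

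The IGF pathway, in which Igf2, Igf2r and Grb10 act, gave 0 genes past the threshold of 24 with values (limma), with 5 at an unadjusted p under 0.05, against 11.5% of all genes. The binding protein Igfbp5 had a log2 difference of -0.30 (limma adjusted p = 0.234), the protease Pappa, which frees IGF from binding proteins, -0.23 (limma adjusted p = 0.380), and the insulin receptor Insr -0.14 (limma adjusted p = 0.429). Igfbp2 was at 0.17 (limma adjusted p = 0.283) and the protease Htra1 at 0.15 (limma adjusted p = 0.446). Of the 7 cyclin-dependent kinase inhibitors of the Cip/Kip and Ink4 families with values, Cdkn1c included, 0 passed (limma) and 0 had an unadjusted p under 0.05, with log2 differences among those averaging 10 or more normalized counts from -0.17 (Cdkn1b, limma adjusted p = 0.455) to 0.14 (Cdkn1c). Of the 17 genes of the Plagl1 network, 15 had values and 9 of these are members, while the rest were already counted among the other imprinted genes, so that H19 was the only gene of this network past the threshold.

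Whether the members rise and fall together from mouse to mouse can be asked without the group difference, from the deviation of each mouse from its group mean on the log2 scale. Of the 21 pairs among the 7 members averaging 10 or more normalized counts, 11 correlated positively and 10 negatively over the 11 mice, with a median Pearson's r of 0.04. H19 and Kcnq1ot1 had r = -0.21 (Spearman's rho = -0.29), between -0.38 and 0.06 when a mouse was left out. The pair that fell together between the groups thus did not vary together within them.

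H19 ran against Peg3 (r = -0.82, rho = -0.66) and against Grb10 (r = -0.81, rho = -0.54). With Peg3 the sign held within the PBS mice (r = -0.86) and within the DT mice (r = -0.74). Peg3 and Igf2r varied together (r = 0.75, rho = 0.78), with r = 0.90 within the PBS mice and 0.37 within the DT mice, and Kcnq1ot1 and Plagl1 had r = 0.55 (rho = 0.59). These values are descriptions of 21 related pairs that share the same 11 libraries.

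The same libraries also differed in the balance of long and short transcripts. The long-gene level, devised after the data were seen, is the median log2 deviation of the 1347 genes with at least 9740 bases of merged exons minus that of the 1347 genes with at most 1636 bases. It ran from -0.19 to 0.34 in the PBS mice and from -0.16 to 0.01 in the DT mice, a difference of -0.10 that did not exceed the spread (two-sided exact permutation test, p = 0.333). Within the groups Peg3, which itself belongs to the long genes, correlated with it at r = 0.95 (permutation test, n = 11 mice, adjusted p = 0.0035 over 14 relations; rho = 0.98, adjusted p = 0.0029), and still at 0.93 without PBS 1 and PBS 4, the mice farthest from its median. Igf2r had r = 0.88 (permutation test, n = 11, adjusted p = 0.018; rho = 0.85, adjusted p = 0.049) and 0.65 without these mice. H19, with 2460 bases of merged exons, had r = -0.70 (permutation test, n = 11, adjusted p = 0.077; rho = -0.61, adjusted p = 0.135) and Kcnq1ot1 0.55 (permutation test, n = 11, adjusted p = 0.188; rho = 0.53, adjusted p = 0.228).

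The mean level of 10 fibroblast markers served as a fibroblast score. The 15 markers listed, all with values, summed to 3195 to 3607 normalized counts after PBS and 3074 to 3963 after DT, and the score differed by -0.14 (two-sided exact permutation test, p = 0.182, adjusted p = 0.381 over 8 lists). Within groups it had r = -0.70 with H19 (permutation test, n = 11, adjusted p = 0.071; rho = -0.67, adjusted p = 0.107), 0.77 with Peg3 (permutation test, n = 11, adjusted p = 0.059; rho = 0.77, adjusted p = 0.084) and 0.77 with Igf2r (permutation test, n = 11, adjusted p = 0.059; rho = 0.65, adjusted p = 0.135). Without PBS 2 and PBS 4, r was -0.48 for H19, 0.62 for Peg3 and 0.77 for Igf2r. With the score as a covariate the log2 difference of H19 was -0.92 and that of Kcnq1ot1 -0.82. In such bulk tissue, fewer cells of a type and less RNA per cell cannot be told apart.

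Of the 8 marker lists scored, 1 differed between the groups, that of smooth muscle and pericytes, which was lower by 0.22 after DT (two-sided exact permutation test, p = 0.0043, adjusted p = 0.035), against a smallest possible p of 0.0022. Without single mice the difference was -0.242 to -0.182 and its adjusted p 0.032 to 0.114, under 0.05 only without DT 5. Such fits have fewer splits and a larger smallest possible p. Not passing in them therefore does not show that the difference rests on single mice. The score rests on 3 of 7 markers, Cspg4 (log2 difference -0.28), Acta2 (-0.37) and Notch3 (0.003). Over all 7 markers of the list, 3 were lower and 4 higher after DT, with a median log2 difference of 0.003. The lower score was thus not shared by the list as a whole. The defining smooth muscle markers Myh11 and Des had 0 to 4.29 and 0 to 8.59 normalized counts in all mice, and the summed level of the list was 5494 to 6426 after PBS and 5419 to 6200 after DT. Its part in the lower H19 and Kcnq1ot1 was not tested.

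**Figure D4:**
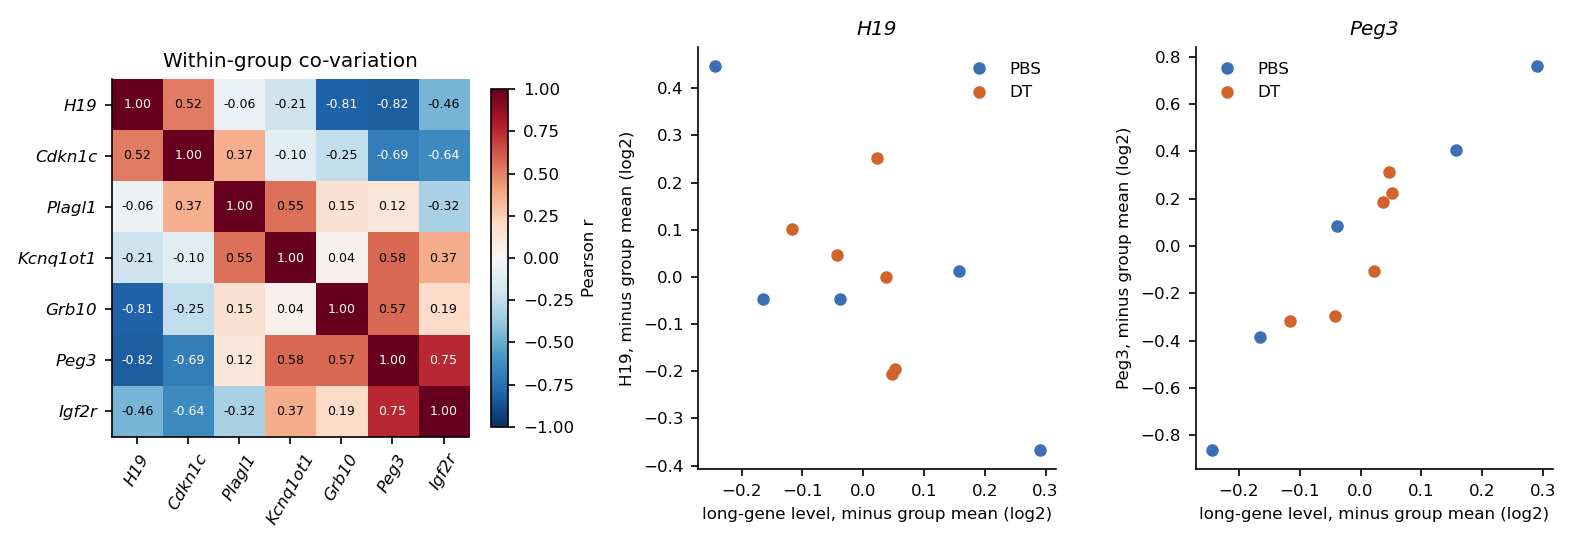
Pearson's r between the deviations from the group mean for 7 members over 11 mice (left, colour scale from -1 to 1), and the deviation of H19 (middle) and Peg3 (right) plotted against that of the long-gene level, both on the log2 scale, for PBS mice (blue) and DT mice (orange). H19 runs downward with it (r = -0.70) and Peg3 upward (r = 0.95), and the PBS mice span the wider range.

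The genes that varied most like each well-measured member within groups were sought among the 11046 genes averaging 50 or more normalized counts, over the same 11 mice. For H19 they were AI413582 (r = 0.94), B3galt4 (0.94), Calml3 (0.93), Micos13 (0.93) and Slc22a18 (0.93), of which Calml3 is a calmodulin-like protein of stratified epithelium. Slc22a18 is the imprinted transporter of the neighbouring domain. Although it tracked H19 within groups, its own difference between groups was -0.0046, and none of these 5 genes passed the threshold.

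For Kcnq1ot1 they were Malat1 (r = 0.97), Pank4 (0.96), Serac1 (0.95), Xist (0.92) and Fcho1 (0.92). Malat1 and Xist are, like Kcnq1ot1, long RNAs that stay in the nucleus. For Malat1 the normalized counts were 16210, 16790, 7877, 21670 and 10330 over PBS 1 to PBS 5, with 5036 to 11340 after DT, a log2 difference of -0.66 (limma adjusted p = 0.282), and Xist 8906 to 22730 and 7149 to 13140, a log2 difference of -0.57 (limma adjusted p = 0.302). PBS 3, the PBS mouse with the least Kcnq1ot1, also had the least Malat1 and Xist of the PBS mice.

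Set against Malat1, Kcnq1ot1 had 14.7, 16.7, 19.2, 14.7 and 20.6 normalized counts per 1000 of Malat1 in PBS 1 to PBS 5. In DT 1 to DT 6 the ratio was 13.3, 13.04, 13.6, 13.4, 14.2 and 13.5. The means were 17.2 ± 2.67 (SD, n = 5) and 13.5 ± 0.40 (SD, n = 6), and the DT mice were nearly alike. Every DT mouse lay below every PBS mouse in this ratio, but only just, with DT 5 at 14.22 and PBS 1 at 14.66. Kcnq1ot1 was picked for its lower level in these same mice, so nothing is read from this. How many other genes have such a ratio to Malat1 without overlap was not counted. With the Malat1 level as a covariate, a fit added after the data were seen, the log2 difference of Kcnq1ot1 was -0.49, and that of H19 -0.88. The part of Malat1 in the lower Kcnq1ot1 was not tested.

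**Figure D5:**
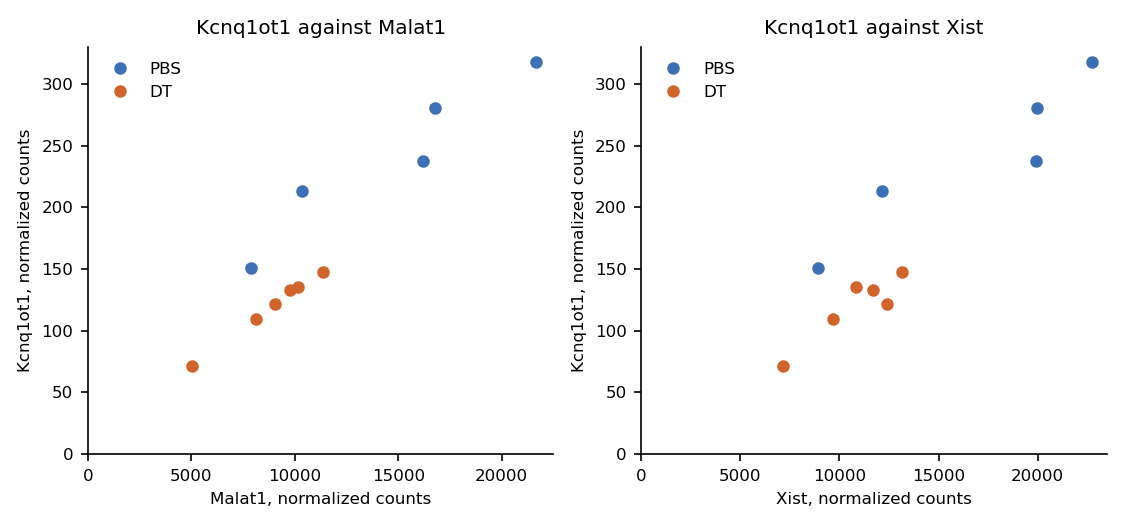
Normalized counts of Kcnq1ot1 (vertical axis) against those of Malat1 (left) and Xist (right), with a point per PBS mouse (blue) and DT mouse (orange). Kcnq1ot1 rises with both transcripts in each group, and the DT mice lie low on both axes, with Malat1 at 5036 to 11340.

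For the other members the most alike genes were Zfp688, Emc9 and 4931428F04Rik for Plagl1 (r = 0.88 to 0.91), Pikfyve, Ift172 and Myh14 for Peg3 (0.96 to 0.98), Dis3l, Itsn1 and Sulf1 for Grb10 (0.90 to 0.92), and Dsp, Ncoa1 and Itpr3 for Igf2r (0.94 to 0.95). Dsp encodes desmoplakin, a main protein of keratinocyte desmosomes. No member of the set appeared among the genes most like another member.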

How the data were processed

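Each value is a normalized count per gene and mouse, deposited by the authors. Per the labels, libraries were made with a stranded poly(A) kit, and the submitters' processing notes name cutadapt 2.10, TopHat2 2.1.1, HTSeq 2.01 and DESeq2 1.36.0. The study's reporting summary names such a kit too, but its methods trim the reads by the guide of QuantSeq, another kit. Levels per kb take the reads to be spread over the whole transcript, which was not tested. The notes and the study's methods name different mouse builds, so gene coordinates and lengths are those of GENCODE M21 on GRCm38, which matched 99.7% of the genes with values. Of 55414 genes listed, 36244 had no value, and the smallest summed read count of a gene with values was 10. Dividing by the value of 1 read gave whole reads in 100.0% of values (within 0.1 reads), used only for depth and read counts.

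The main test was limma 3.58.1 (R 4.3.3), its prior variance following the mean level, on log2(normalized count + 1) over all genes, without covariates, and Benjamini-Hochberg adjustment with a threshold of 0.1. This scale understates changes of low genes. Correlations were tested by 100000 permutations within groups, scores by exact permutation. Nothing says whether mice shared litters or cages. The fit was tested on simulated data. Alternatives covered the pseudocount, filter, scaling, weights, length and GC, covariates, blocks and left-out mice. The planned count tests were not run.

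Named were all members, per list each gene past the threshold and the 3 with the smallest p in each direction among means of at least 10, and the genes most like each member. The members and lists were chosen with earlier results of these data known.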

Additional observations from a re-analysis of the deposited data

Results flagged for a closer look

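A mouse was picked out where its gap to the nearest mouse of its group, divided by the range of the group, exceeded Dixon's 95% critical value for its number of mice. Of 38 groups of values examined (the 10 members, the long-gene level and the 8 marker scores in each treatment), 1 was picked out, and chance alone gives about 1 in 20. It was Cdkn1c in DT 4, at 39.7 normalized counts (37 reads), against 17.2 to 24.5 in the other DT mice.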

How the results depend on the processing

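The number of genes past the threshold, 107, moved to 189 with array weights and 168 with the correction for length and GC content. It was 237 with the fibroblast score as a covariate. In fits added after the data were seen, it was 65 with Malat1, 635 with the long-gene level and 1967 without PBS 3 and PBS 5. Beside these 1967 of all 19170 genes, 5 of the 10 members passed in the last fit, H19 and Kcnq1ot1 included. So did 5 of the 49 other imprinted genes with values (Impact, Ube3a, Gnas, Pon2 and Phactr2). The Kcnq1ot1 difference was -0.68 with the correction for length and GC content. Signs turned for Cdkn1c (-0.011 with the fibroblast score, -0.038 with the long-gene level), Peg3 (0.063, 0.034 and, with Malat1, 0.198) and Meg3 (0.197, 0.060 and 0.779), of which Meg3 rests on 24 reads. The cause was not tested. Per kb of the longest transcript, Plagl1 was at 217, Peg3 at 89.04 and Grb10 at 13.9.

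Nothing says whether the replicate numbers in the titles pair the mice. Same-numbered PBS and DT mice had deviations that correlated at -0.23 to 0.32, which does not decide it. With the number in the title as a block, 35 genes passed. With the library number as a block, 0 genes passed (limma, 1404 at an unadjusted p under 0.05), H19 and Kcnq1ot1 included (-0.79 and -0.85), so that 0 members passed.

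Leaving out each mouse in turn gave 27 (without DT 5) to 259 (without PBS 5) genes past the threshold, with changes of over 1.5 times in 9 of the 11 fits (all but those without PBS 3 or DT 2), 0 to 1 other imprinted genes and 1 to 2 members. The range was -0.0094 to 0.262 for the Cdkn1c difference and -0.381 to 0.057 for the correlation of H19 with Kcnq1ot1. Correlations with the fibroblast score ran from -0.843 to -0.539 for H19 (past an adjusted p of 0.05 in 1 fit), -0.293 to 0.184 for Plagl1, 0.642 to 0.852 for Peg3 (1 fit) and 0.639 to 0.855 for Igf2r (2 fits). Those with the long-gene level ran from -0.107 to 0.263 for Plagl1, -0.796 to -0.586 for Cdkn1c (1 fit) and 0.800 to 0.912 for Igf2r (8 of 11 fits), and Peg3 passed in all 11. Marker score differences ran from -0.242 to -0.182 for smooth muscle and pericytes (past an adjusted p of 0.05 without DT 5 and in none of the other 10 fits, where fewer splits raise the smallest p), -0.0072 to 0.036 for epithelium, -0.0015 to 0.135 for skeletal muscle and 0.291 to 0.673 for Schwann cells (1 fit).

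The count tests planned as alternatives were not run. Igf2, Meg3 and Ndn lie at the floor of 3 reads per library or near it, so no fold is given for them.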
